A study of Mus musculus with 27 samples.

Results

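The genes described here are 39 genes of amino acid breakdown and the urea cycle, taken by name from a list of enzymes and mitochondrial carriers that was drawn up with earlier results of these data known. Of these, 36 had a probe set of their own on the array, and all 36 exceeded the intensity minimum in all 27 livers, among 18820 genes with such a probe set and 13603 genes that were tested. The remaining 3 had no value: the probe sets of Ass1 also named another gene, and Sds and Sdsl had no probe set in the annotation used. Mut is listed under its current symbol, Mmut.

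The livers came from male C57BL/6J mice that ate 1 of 4 diets until 12 months of age, and their RNA was hybridised to Affymetrix Mouse Gene 1.1 ST arrays, 1 array per mouse. The 7 INT-fed mice alternated weekly between AIN-93W-MF ad libitum and a 40% energy restriction and were sacrificed in a week of AIN-93W-MF. The 6 CR-fed mice received AIN-93W-CR at a 30% energy restriction, as 1 portion a day. The 7 MF-fed mice ate AIN-93W-MF ad libitum, with 25% of energy from fat, and the 7 C-fed mice ate AIN-93W ad libitum. All mice had spent 2 wk on AIN-93G, started their diet at 9 wk of age, and were mock-treated before sacrifice: they were fasted for 4 h, received carboxymethyl cellulose (0.5%) by gavage and were fasted for 6 h more. The INT group thus represents its unrestricted week only, and in the CR group the restriction and the single daily portion cannot be told apart. The question was how these genes differed between the intermittent and the continuous restriction, and between each of these and the ad libitum diets.

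The liver is the main site of amino acid breakdown. Aminotransferases collect amino groups in glutamate and aspartate, and glutamate dehydrogenase frees ammonia. The urea cycle, split between mitochondria and cytosol of mainly periportal hepatocytes, turns ammonia and the nitrogen of aspartate into urea. The carbon skeletons enter the citric acid cycle, gluconeogenesis or ketone body formation, and many of these enzymes are known to respond to fasting, glucagon and glucocorticoids.

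Values are log2 intensities, and each gene's level is given as the lowest, median and highest mouse of a diet. A fold change is a difference of log2 means, the first-named diet minus the second, and a gene was called when limma's adjusted p over all 13603 genes was below 0.05. Array medians lay between 5.21 and 5.27, and any pair of arrays correlated at 0.982 to 0.992. Arrays of replicates 1 to 4 had an interquartile range of 3.63 (SD 0.03, 16 arrays), and those of replicates 5 to 7 of 3.72 (SD 0.03, 11 arrays). Hepatocyte markers (5 of 6 with a value) averaged 13.04 in INT-, 13.04 in CR-, 13.02 in MF- and 13.04 in C-fed mice. Adipocyte and exocrine pancreas markers averaged 4.12 to 4.37 in each diet.

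Members from 5 of the 8 pathway groups, 12 genes in all, were higher in CR-fed mice than in both C- and MF-fed mice. Over all genes tested, 8.46% were higher in CR than in C and 8.57% than in MF. The share of all genes higher in both was not counted. The 12 members were Cps1, Asl, Arg1, Nags and Slc25a15 of the urea cycle, Got1 and Glud1, Tat and Hgd of tyrosine breakdown, Shmt1 and Gldc of serine and glycine breakdown, and Hal of histidine breakdown. Shmt2, the mitochondrial serine hydroxymethyltransferase, was lower in CR-fed mice in both comparisons. Between INT- and CR-fed mice, 11 of the 12 were lower in INT-fed mice, with Nags the exception, Uroc1 was also lower, and Shmt2 was higher. The 12 had been picked as high in these same CR-fed mice, and 6.62% of all genes were lower in INT than in CR. No member was called between INT, MF and C, where 0 of all 13603 genes tested were called.

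In numbers, 13 of 36 members (36.1%) were called between INT and CR, 1 higher and 12 lower, where 15% of all genes tested were called (8.37% higher and 6.62% lower). Between CR and C, 13 of 36 were called, 12 higher and 1 lower, where 17.5% of all genes were called (8.46% higher and 9.05% lower). Between CR and MF, 13 of 36 were again called, 12 higher and 1 lower, where 19.8% of all genes were called (8.57% higher and 11.2% lower). The median log2 fold change of the 36 members was -0.07 between INT and CR, 0.04 between CR and C and 0.14 between CR and MF. That of all genes rounded to 0.00 in each of the same comparisons. Within replicates 1 to 4 the member medians were -0.01, -0.02 and 0.17, and within replicates 5 to 7 they were -0.22, 0.18 and 0.13. The diets did not overlap for 9 of 36 members between INT and CR (6.43% of all genes), 7 between CR and C (6.7% of all genes) and 10 between CR and MF (7.02% of all genes). The comparisons share the CR-fed mice, so that their counts are not independent.

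For Arg1, Slc25a15, Got1, Tat, Hgd and Hal, all 6 CR-fed mice lay above all 21 other mice. This held for 6 of 36 members (16.7%), where it held for 1.18% of all genes tested. The diet of highest mean was CR for 20 of 36 members (55.6%, against 36.3% of all genes), and the diet of lowest mean was MF for 20 of 36 (55.6%, against 21.6% of all genes). The 2 sets of arrays differed here: within replicates 1 to 4, CR was highest for 14 members (33.5% of all genes) and MF lowest for 25 (25.7% of all genes), and within replicates 5 to 7, CR was highest for 25 (34.8% of all genes) and MF lowest for 4 (17.3% of all genes).

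**Figure D1:**
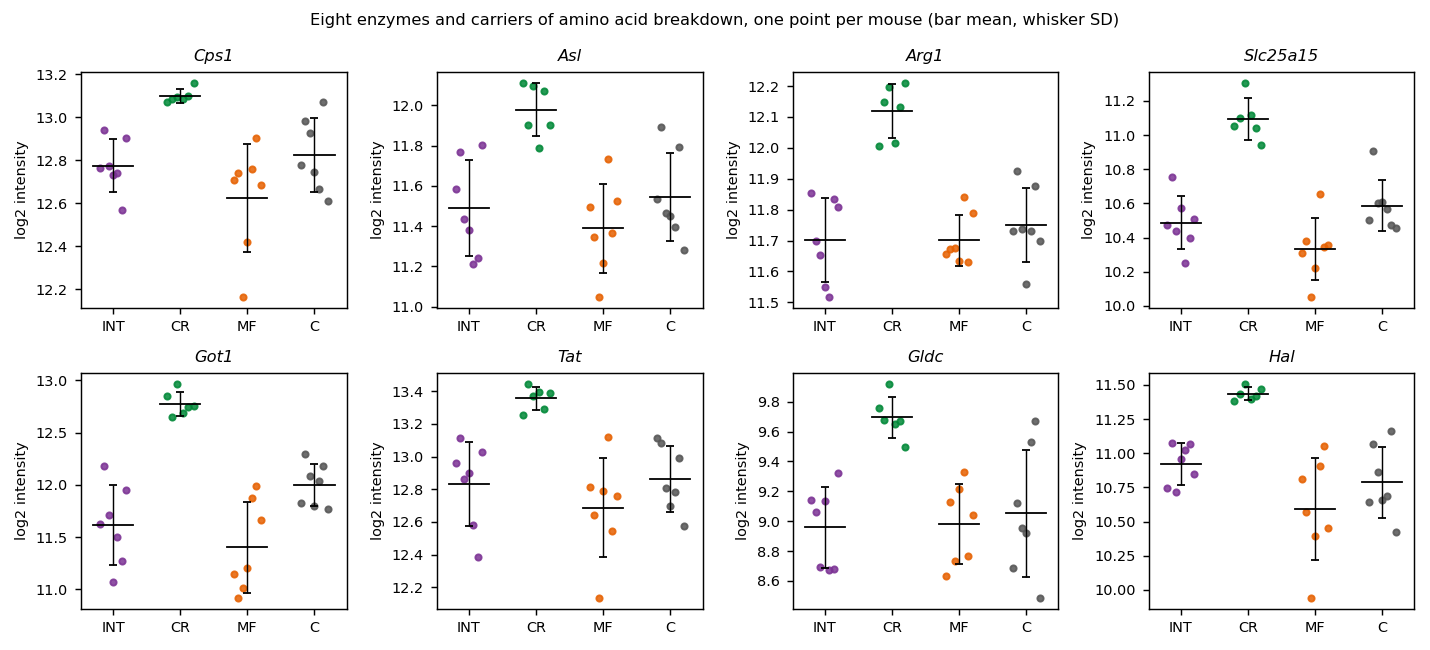
Log2 intensity (y axis, cut to each gene's range) of Cps1, Asl, Arg1, Slc25a15, Got1, Tat, Gldc and Hal in each mouse, by diet (INT, CR, MF, C), with 1 point per mouse, the mean as a bar and the SD as a whisker. CR-fed mice lie above all other mice for Arg1, Slc25a15, Got1, Tat and Hal.

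Some markers of other cell types and of liver zones also differed with CR. The Kupffer cell markers (5 of 5 with a value) averaged 8.18 (range over mice 7.84 to 8.36) in INT-, 8.69 (8.50 to 8.96) in CR-, 8.27 (7.94 to 8.61) in MF- and 8.37 (8.12 to 8.58) in C-fed mice. Of the 5, 4 were called lower in INT than in CR (6.62% of all genes). Only 1 was called higher in CR than in C (8.46% of all genes), and 1 than in MF (8.57% of all genes). The pericentral hepatocyte markers (8 of 8) averaged 9.94 (9.83 to 10.02) in INT-, 9.75 (9.64 to 9.95) in CR-, 9.98 (9.88 to 10.06) in MF- and 9.98 (9.73 to 10.16) in C-fed mice. Of the 8, 2 were called higher in INT than in CR (8.37% of all genes). In CR, 2 were called lower than in C (9.05% of all genes) and 1 lower than in MF (11.2% of all genes). Periportal markers that are no members (5 of 6) averaged 10.51 (10.26 to 10.69) in INT-, 10.87 (10.71 to 10.94) in CR-, 10.51 (10.28 to 10.80) in MF- and 10.62 (10.51 to 10.84) in C-fed mice, but they did not move one way: Etnppl was higher in CR than in C by 1.52 and Cyp2f2 lower, at -0.65. Alas2, the only erythroid marker with a value, averaged 9.59 (9.42 to 9.75) in INT-, 8.04 (7.73 to 8.30) in CR-, 9.38 (8.67 to 9.74) in MF- and 9.45 (9.21 to 9.87) in C-fed mice. The part of these shifts in the results below was not tested, and in whole liver fewer cells of a type and less RNA per cell cannot be told apart.

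Promoter windows (250 bases before to 50 after the start, RefSeq, GRCm38.p6) were found for 31 of the 39 members, in 34 windows, and for 9 of the 12 that were higher in CR. Both strands were searched for TATAAA, TGACGTCA (the cAMP response element), TTGCGCAA and its looser form TTGCNNAA (a C/EBP type of site, which includes the first), CAAAGTCCA (an HNF4 type of site) and TGTTCT (a glucocorticoid receptor half-site). TATAAA was in the windows of Ftcd, Got2, Hal and Hgd, and in 13.6% of all 32851 windows. TTGCNNAA was in those of Aass, Hal and Hgd, and in 10.8% of all windows. TGTTCT was in those of Agxt, Bckdhb and Pccb, and in 19% of all windows, while TGACGTCA, TTGCGCAA and CAAAGTCCA were in no member window and in 1.79%, 0.183% and 0.475% of all windows. These matches describe letters only.

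Hal and Hgd are shown because both were higher in CR and held the matches, and Got1 because its difference was the largest of the members and its window held none. Capitals mark TATAAA and TTGCNNAA on either strand. The TATAAA matches of Hal and Hgd and the TTGCNNAA matches of Hgd were on the opposite strand, so TATAAA is printed as TTTATA. The TTGCNNAA of Hal was on the gene's own strand. The Hal window (chr10:93488518-93488817, plus strand) has TATAAA beginning 28 and TTGCNNAA 150 bases before the start, the Hgd window (chr16:37579903-37580202, plus strand) has TATAAA 139 and TTGCNNAA 49 bases before the start, with a second TTGCNNAA after it, and the Got1 window lies at chr19:43524556-43524855, minus strand.
Hal: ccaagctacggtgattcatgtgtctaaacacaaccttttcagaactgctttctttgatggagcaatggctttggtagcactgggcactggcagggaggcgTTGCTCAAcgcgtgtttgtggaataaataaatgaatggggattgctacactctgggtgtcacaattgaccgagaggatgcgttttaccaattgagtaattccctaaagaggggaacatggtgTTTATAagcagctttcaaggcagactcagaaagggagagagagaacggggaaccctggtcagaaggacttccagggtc
Hgd: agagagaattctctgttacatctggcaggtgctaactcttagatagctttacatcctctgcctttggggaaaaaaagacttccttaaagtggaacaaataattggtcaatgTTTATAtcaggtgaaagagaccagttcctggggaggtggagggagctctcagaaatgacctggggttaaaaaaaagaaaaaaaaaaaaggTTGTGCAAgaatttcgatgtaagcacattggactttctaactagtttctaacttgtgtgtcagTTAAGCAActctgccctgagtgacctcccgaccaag
Got1: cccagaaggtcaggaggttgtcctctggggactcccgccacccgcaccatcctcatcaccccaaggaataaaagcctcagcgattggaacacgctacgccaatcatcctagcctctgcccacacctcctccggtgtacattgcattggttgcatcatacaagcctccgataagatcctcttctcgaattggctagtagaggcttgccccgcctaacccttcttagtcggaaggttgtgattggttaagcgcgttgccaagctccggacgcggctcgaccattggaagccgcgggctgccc

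In the urea cycle, 4 of 7 members were lower in INT than in CR (6.62% of all genes), and 5 of 7 were higher in CR than in C (8.46% of all genes) and than in MF (8.57% of all genes). Slc25a15, the mitochondrial ornithine carrier, had levels of 10.25, 10.47 and 10.75 in INT-, 10.94, 11.08 and 11.31 in CR-, 10.05, 10.35 and 10.65 in MF- and 10.45, 10.57 and 10.90 in C-fed mice. All CR-fed mice were above all others, and the other diets overlapped. The log2 fold changes were -0.61 (adjusted p = 1.13e-05) between INT and CR, 0.51 (adjusted p = 0.000115) between CR and C and 0.76 (adjusted p = 4.21e-07) between CR and MF, each with an SE of 0.09, so that CR-fed mice had 1.70-fold the level of MF-fed mice. Slc25a15 was the member called in all 3 comparisons within replicates 1 to 4 and within replicates 5 to 7 alike.

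Arg1, the arginase that releases urea, had levels of 11.52, 11.70 and 11.86 in INT-, 12.01, 12.14 and 12.21 in CR-, 11.63, 11.67 and 11.84 in MF- and 11.56, 11.73 and 11.92 in C-fed mice. The CR-fed mice again did not overlap with any other diet. Its fold change was -0.42 (SE 0.06, adjusted p = 4.31e-05) between INT and CR, 0.37 (adjusted p = 0.000177) between CR and C and 0.42 (adjusted p = 3.28e-05) between CR and MF. Asl, which splits argininosuccinate into arginine and fumarate, had levels of 11.21, 11.44 and 11.80 in INT-, 11.79, 11.99 and 12.11 in CR-, 11.05, 11.37 and 11.73 in MF- and 11.28, 11.46 and 11.89 in C-fed mice. The CR-fed mice were above all MF-fed mice, while the highest INT- and C-fed mice reached into the CR range. Asl differed by -0.49 (SE 0.11, adjusted p = 0.00297) between INT and CR, 0.43 (adjusted p = 0.00693) between CR and C and 0.59 (adjusted p = 0.000363) between CR and MF.

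Cps1, the mitochondrial carbamoyl phosphate synthetase that takes up ammonia, had levels of 12.57, 12.76 and 12.94 in INT-, 13.07, 13.09 and 13.16 in CR-, 12.16, 12.71 and 12.90 in MF- and 12.61, 12.78 and 13.07 in C-fed mice. The 6 CR-fed mice lay close together above all INT- and MF-fed mice, and the highest C-fed mouse overlapped with them. Its fold change was -0.32 (SE 0.09, adjusted p = 0.0154) between INT and CR, 0.27 (adjusted p = 0.0372) between CR and C and 0.47 (adjusted p = 0.00044) between CR and MF. The call between CR and C was lost, with an adjusted p of up to 0.0847, when any 1 of 9 mice was left out: CR replicates 2, 3, 4, 5 and 6, and C replicates 1, 4, 5 and 7. It was also lost under median centring (adjusted p = 0.0532) and when mouse number was a block (adjusted p = 0.0563). Nags, which makes the N-acetylglutamate that activates Cps1, was higher in CR than in C by 0.30 (SE 0.08, adjusted p = 0.0132) and than in MF by 0.35 (adjusted p = 0.00339), and had -0.16 (adjusted p = 0.206) between INT and CR. The Nags difference between CR and MF was 0.13 (adjusted p = 0.67) within replicates 5 to 7.

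Otc, which joins carbamoyl phosphate to ornithine, and Slc25a13, the aspartate and glutamate carrier citrin, were not called in any comparison. Otc had fold changes of 0.10 between INT and CR, -0.07 between CR and C and 0.02 between CR and MF (SE 0.06), and Slc25a13 of 0.14, -0.06 and -0.02 (SE 0.07) in the same order.

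Among the aminotransferases and glutamate dehydrogenase, Got1 and Glud1 were called in each comparison with CR and the other 3 of 5 were not. Of all genes, 15% were called between INT and CR, 17.5% between CR and C and 19.8% between CR and MF. Got1, the cytosolic aspartate aminotransferase, had levels of 11.07, 11.63 and 12.18 in INT-, 12.65, 12.75 and 12.97 in CR-, 10.92, 11.20 and 11.99 in MF- and 11.77, 12.04 and 12.29 in C-fed mice. The CR-fed mice lay above all others, and the INT- and MF-fed mice were spread more widely than the CR- and C-fed mice. Got1 was 2.23-fold lower in INT- than in CR-fed mice (log2 fold change -1.16, SE 0.17, adjusted p = 1.37e-05), 1.71-fold higher with CR than with C (0.78, adjusted p = 0.00137) and 2.59-fold higher with CR than with MF (1.37, adjusted p = 1.1e-06). It had the largest fold change of the members in each of the 3 comparisons. Between CR and MF it differed by 1.72 (adjusted p = 2.13e-05) within replicates 1 to 4 and by 0.91 (adjusted p = 0.0315) within replicates 5 to 7.

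Glud1, the mitochondrial glutamate dehydrogenase, had levels of 11.65, 11.76 and 11.89 in INT-, 11.81, 11.94 and 12.02 in CR-, 11.58, 11.63 and 11.91 in MF- and 11.55, 11.59 and 11.75 in C-fed mice. The CR-fed mice were above all C-fed mice and overlapped with the INT- and MF-fed mice. The fold change was 0.30 (SE 0.06, adjusted p = 0.000454) between CR and C, 0.26 (adjusted p = 0.00165) between CR and MF and -0.17 (adjusted p = 0.0472) between INT and CR. The last call was lost, with an adjusted p of up to 0.104, when any 1 of 19 mice was left out (replicates 1, 2, 3, 4, 6 and 7 of INT, 2, 4, 5 and 6 of CR, 2, 3, 5 and 7 of MF, and 1, 2, 3, 5 and 7 of C). It was also lost with no intensity minimum, under median centring, with INT- and CR-fed mice alone in the fit, and with the replicate number (adjusted p = 0.058) or mouse number (adjusted p = 0.0808) as a block.

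Several reactions are run by a cytosolic and a mitochondrial enzyme, whose fold changes are set side by side here, since levels of different probe sets are not on 1 scale. Got2, the mitochondrial partner of Got1, had 3 probe sets. The brightest, used here, stayed between 12.49 and 12.70 in all mice, with fold changes of 0.00 between INT and CR, 0.00 between CR and C and -0.03 between CR and MF (SE 0.04). Another Got2 probe set, at a mean of 12.52, had 0.005, -0.005 and -0.03 in the same order and was not called. A dimmer Got2 probe set, at a mean of 8.85, had 0.07, -0.12 and -0.10 in the same order and was not called. Gpt and Gpt2, the cytosolic and mitochondrial alanine aminotransferases, were not called in any comparison.

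Shmt1 and Shmt2 interconvert serine and glycine in cytosol and mitochondria, and they moved in opposite directions. Shmt1 had levels of 9.64, 9.70 and 9.74 in INT-, 9.74, 10.00 and 10.43 in CR-, 9.35, 9.73 and 9.78 in MF- and 9.50, 9.71 and 9.85 in C-fed mice. Of the CR-fed mice, replicates 3 and 4 lay below the highest C-fed mouse and replicate 4 also below the highest INT- and MF-fed mice. Its fold change was -0.31 (SE 0.09, adjusted p = 0.0134) between INT and CR, 0.34 (adjusted p = 0.00597) between CR and C and 0.36 (adjusted p = 0.00323) between CR and MF. Between INT and CR it was -0.19 (adjusted p = 0.268) within replicates 1 to 4 and -0.56 (adjusted p = 0.0374) within replicates 5 to 7, and between CR and C it was 0.17 (adjusted p = 0.33) and 0.66 (adjusted p = 0.0165).

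Shmt2 had levels of 10.44, 10.59 and 10.64 in INT-, 10.13, 10.29 and 10.41 in CR-, 10.53, 10.58 and 10.83 in MF- and 10.39, 10.63 and 10.66 in C-fed mice. The CR-fed mice lay below all INT- and MF-fed mice and overlapped with the lowest C-fed mouse. Shmt2 differed by 0.27 (SE 0.06, adjusted p = 0.00152) between INT and CR, -0.30 (adjusted p = 0.000489) between CR and C and -0.33 (adjusted p = 0.000155) between CR and MF. A second Shmt2 probe set, far dimmer at a mean of 5.23, had -0.10 between CR and C (adjusted p = 0.305).

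**Figure D2:**
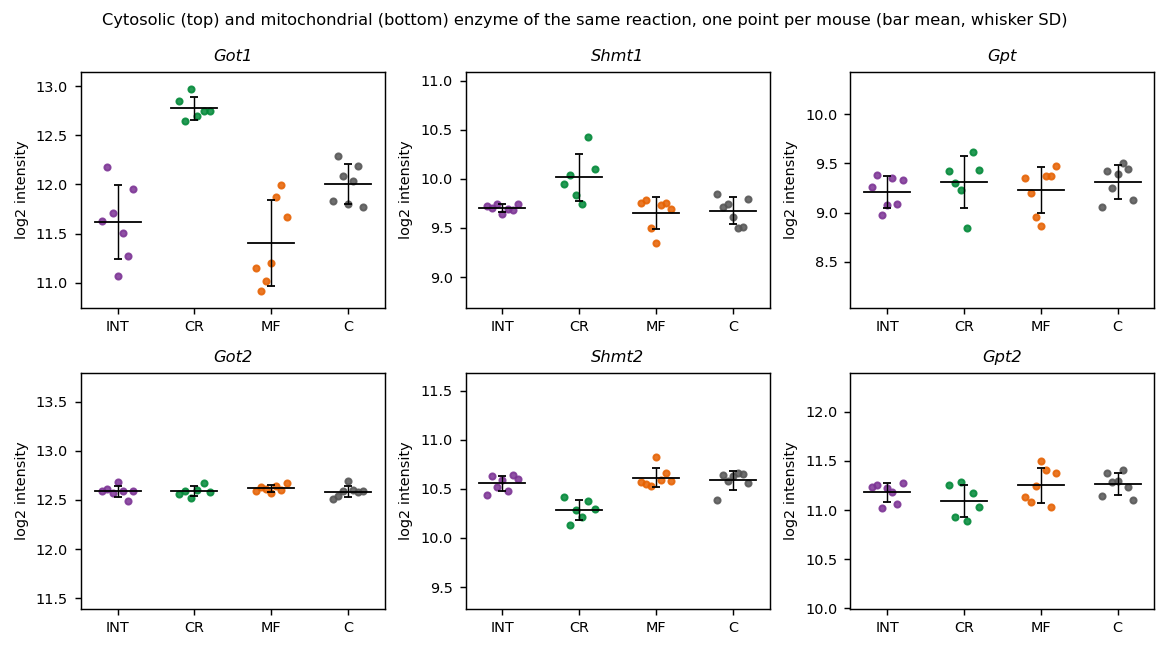
Log2 intensity (y axis, the same span within a column) per mouse of the cytosolic enzyme (top) and the mitochondrial enzyme (bottom) of aspartate aminotransferase, serine hydroxymethyltransferase and alanine aminotransferase, by diet, with the mean as a bar and the SD as a whisker. CR-fed mice are above all others for Got1 and low for Shmt2, while Got2, in its brightest probe set, stays between 12.49 and 12.70 in all 27 mice.

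Gldc, the decarboxylase of the mitochondrial glycine cleavage system, had levels of 8.67, 9.06 and 9.32 in INT-, 9.50, 9.67 and 9.92 in CR-, 8.63, 9.04 and 9.33 in MF- and 8.49, 8.95 and 9.67 in C-fed mice. The CR-fed mice were above all INT- and MF-fed mice, and 2 C-fed mice (replicates 5 and 6) reached the CR range. Its fold change was -0.74 (SE 0.16, adjusted p = 0.00146) between INT and CR, 0.64 (adjusted p = 0.0044) between CR and C and 0.72 (adjusted p = 0.00149) between CR and MF. Within replicates 5 to 7 it was 0.36 (adjusted p = 0.635) between CR and C. Amt, the aminomethyltransferase of the same system, was not called, at 0.16, -0.04 and -0.13 (SE 0.10) in the same order. Agxt, which turns glyoxylate into glycine, was not called either and ranged from 8.70 to 9.89 over all mice.

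In tyrosine breakdown, 2 of 4 members were called in each comparison with CR. Of all genes, 15% were called between INT and CR, 17.5% between CR and C and 19.8% between CR and MF. Tat, the tyrosine aminotransferase that starts the pathway, had levels of 12.38, 12.90 and 13.12 in INT-, 13.25, 13.38 and 13.45 in CR-, 12.13, 12.76 and 13.12 in MF- and 12.58, 12.81 and 13.12 in C-fed mice. The CR-fed mice were above all others and the other diets overlapped with each other. Tat differed by -0.52 (SE 0.12, adjusted p = 0.00347) between INT and CR, 0.49 (adjusted p = 0.00525) between CR and C and 0.67 (adjusted p = 0.000234) between CR and MF.

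Hgd, the homogentisate dioxygenase further down, had levels of 12.12, 12.24 and 12.44 in INT-, 12.45, 12.52 and 12.62 in CR-, 12.04, 12.23 and 12.37 in MF- and 12.28, 12.31 and 12.40 in C-fed mice. The CR-fed mice lay just above all others. The differences were small, at -0.24 (SE 0.06, adjusted p = 0.00439) between INT and CR, 0.20 (adjusted p = 0.0179) between CR and C and 0.31 (adjusted p = 0.000298) between CR and MF. Hpd and Fah, the step between Tat and Hgd and the last step of the pathway, were not called and had fold changes of -0.04 to 0.13 in the 3 comparisons.

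In histidine breakdown, Hal, the histidine ammonia-lyase whose promoter is printed above, had levels of 10.72, 10.96 and 11.08 in INT-, 11.38, 11.43 and 11.51 in CR-, 9.94, 10.57 and 11.05 in MF- and 10.43, 10.68 and 11.16 in C-fed mice. The CR-fed mice lay within a narrow band above all others, and the MF-fed mice were the most spread. The fold change was -0.52 (SE 0.13, adjusted p = 0.00675) between INT and CR, 0.65 (adjusted p = 0.000764) between CR and C and 0.84 (adjusted p = 3.17e-05) between CR and MF. Uroc1, the urocanate hydratase that follows, had levels of 10.01, 10.18 and 10.25 in INT-, 10.24, 10.52 and 10.62 in CR-, 9.83, 10.30 and 10.52 in MF- and 10.08, 10.28 and 10.50 in C-fed mice.

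Only 1 CR-fed mouse reached down to the highest INT-fed mouse for Uroc1, while the MF- and C-fed mice overlapped with the CR-fed mice. Uroc1 was lower in INT than in CR by a log2 fold change of -0.32 (SE 0.09, adjusted p = 0.016), and had 0.19 (adjusted p = 0.172) between CR and C and 0.21 (adjusted p = 0.11) between CR and MF. Ftcd, the folate-dependent last enzyme, had 0.00, -0.06 and 0.02 (SE 0.07) between INT and CR, CR and C, and CR and MF.

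The pathways of proline, branched chain amino acids and lysine had no called member, though Mccc2, Pccb and Aass were called under some alternatives, given below. Prodh, the proline dehydrogenase, had levels of 10.00, 10.05 and 10.43 in INT-, 10.13, 10.36 and 10.72 in CR-, 9.59, 10.22 and 10.38 in MF- and 10.04, 10.23 and 10.55 in C-fed mice. All diets overlapped, and its fold change was -0.23 between INT and CR, 0.14 between CR and C and 0.25 between CR and MF (SE 0.12, adjusted p from 0.151 to 0.485). Aldh4a1, the next enzyme, lay between -0.09 and 0.14 in these comparisons.

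The 9 genes of branched chain and propionate breakdown include the subunits of the branched chain ketoacid dehydrogenase (Bckdha, Bckdhb, Dbt), the leucine enzymes Ivd, Mccc1 and Mccc2, and the propionate enzymes Pcca, Pccb and Mmut. Between INT and CR their fold changes lay between -0.11 and 0.19, with 95% intervals that all fell between -0.28 and 0.34. Between CR and C the fold changes lay between -0.21 and 0.13 (intervals from -0.38 to 0.26), and between CR and MF between -0.14 and 0.14 (intervals from -0.29 to 0.33). Nearest to the threshold were Mccc2 between INT and CR (0.19, adjusted p = 0.0577) and Pccb between CR and C (-0.21, adjusted p = 0.0664). Mccc2 was called when CR replicate 1, CR replicate 5 or INT replicate 3 was left out (lowest adjusted p = 0.0082), under median centring, a trended robust variance or array weights (lowest adjusted p = 0.0232) and by the methods' one-way test, and between CR and MF without CR replicate 5 (adjusted p = 0.0315). Pccb was called when CR replicate 1, CR replicate 5 or INT replicate 7 was left out (lowest adjusted p = 0.0381), and with the array set, the replicate number or the mouse number as a block (lowest adjusted p = 0.0283).

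Ivd, the isovaleryl-CoA dehydrogenase, had the largest difference of these 9 genes, and it was not one with CR. It had levels of 9.84, 10.17 and 10.21 in INT-, 9.70, 10.02 and 10.13 in CR-, 9.57, 9.85 and 10.08 in MF- and 9.79, 9.97 and 10.26 in C-fed mice, and the fold change between INT and MF was 0.26 (SE 0.09, adjusted p = 0.351). Aass, the first enzyme of lysine breakdown, had levels of 10.84, 11.23 and 11.65 in INT-, 11.30, 11.42 and 11.88 in CR-, 11.02, 11.13 and 11.36 in MF- and 11.08, 11.37 and 11.58 in C-fed mice. All diets overlapped. Aass had -0.31 (SE 0.11, adjusted p = 0.0645) between INT and CR, 0.15 (adjusted p = 0.426) between CR and C and 0.30 (adjusted p = 0.0598) between CR and MF, and it passed the threshold in the first without INT replicate 1 (adjusted p = 0.012) or with array weights (adjusted p = 0.0427) and in the last without INT replicate 1 or MF replicate 5 (lowest adjusted p = 0.034) or with CR- and MF-fed mice alone in the fit (adjusted p = 0.0401).

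**Figure D3:**
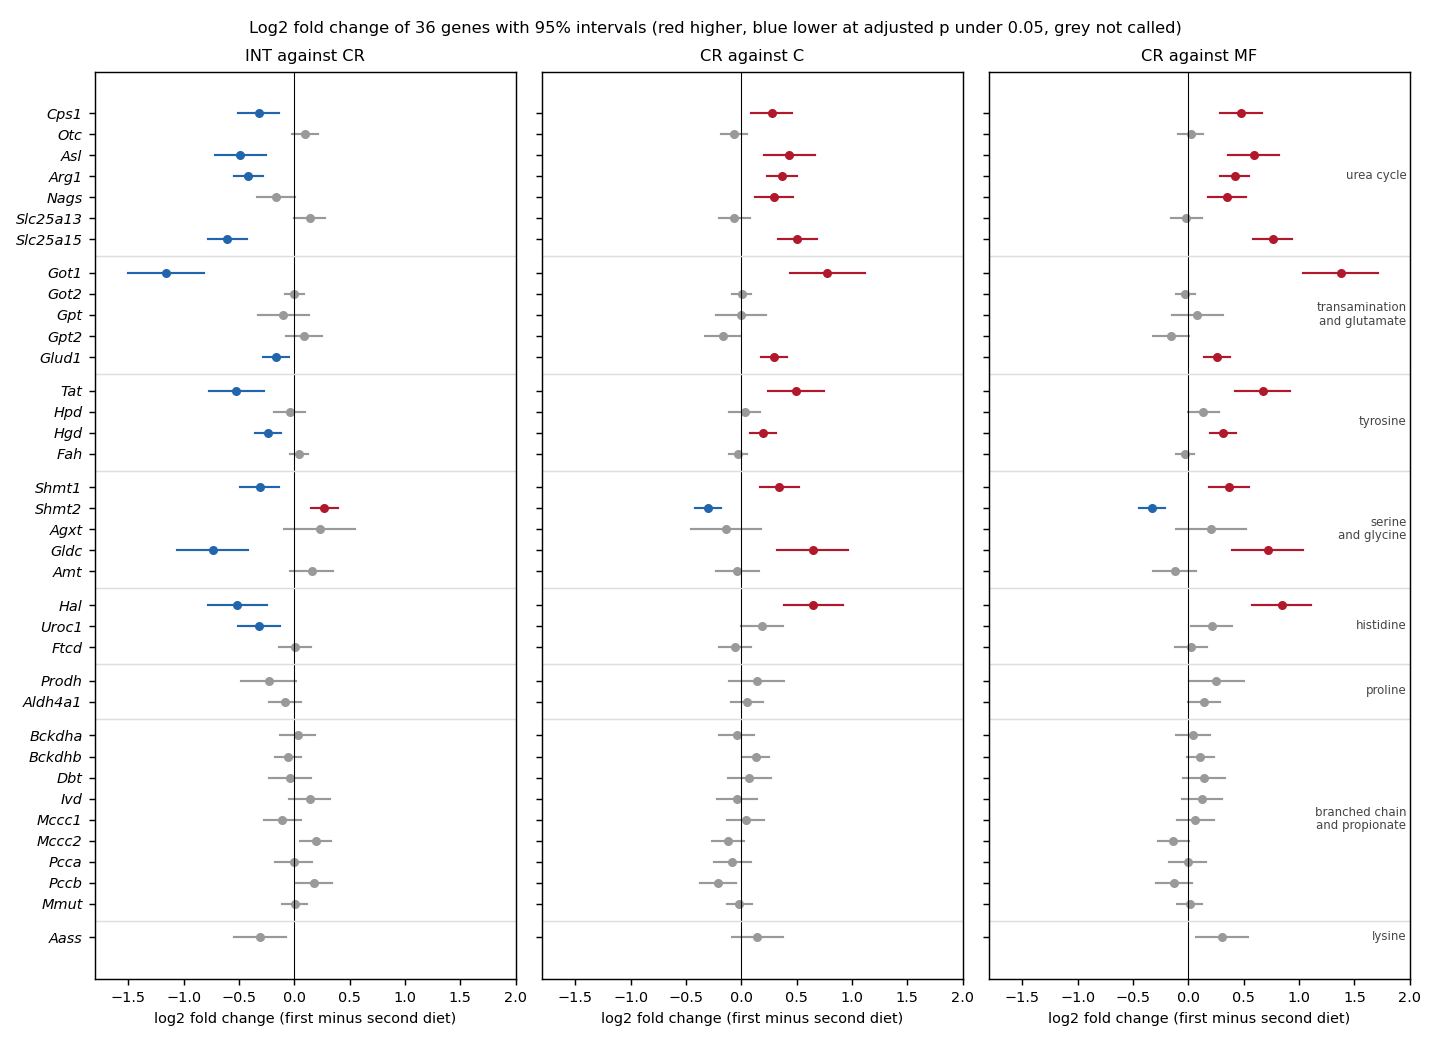
Log2 fold change (x axis, first diet minus second) of the 36 members, ordered by pathway from top to bottom, between INT and CR, CR and C, and CR and MF, with points as estimates and bars as 95% intervals of limma. Red and blue points are called higher and lower, and grey points, among them all 9 branched chain and propionate genes, are not called by this fit.

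Between INT and C, INT and MF, and MF and C, no member and 0 of 13603 genes (0%) were called. At an unadjusted p below 0.05 there were 2 members and 922 genes (6.78%) between INT and C, 5 members and 1479 genes (10.9%) between INT and MF, and 4 members and 464 genes (3.41%) between MF and C. The one-way test with Tukey's comparisons named in the methods, applied to each member without adjustment over genes, found 0 members between INT and C, 1 between INT and MF (Ivd) and 2 between MF and C (Slc25a15 and Got1). Got1 had -0.38 (SE 0.16, adjusted p = 0.66) between INT and C and -0.60 (adjusted p = 0.9998) between MF and C, and Slc25a15 had -0.26 (SE 0.08, adjusted p = 0.9998) between MF and C. Agxt had 0.43 (SE 0.15, adjusted p = 0.362) between INT and MF and -0.34 between MF and C.

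Between MF and C, 30 of 36 members had a log2 fold change below 0, where 45.4% of all genes did, and the member median was -0.08, against 0.01 over all genes. This lay in replicates 1 to 4, where 31 of 36 members (46% of all genes) were below 0 with a median of -0.15, while within replicates 5 to 7 it was 13 of 36 (48% of all genes) with a median of 0.03. Cps1, for example, had -0.35 and 0.00, Got1 -0.93 and -0.15, and Hal -0.38 and 0.05 in these 2 sets, with none of them called. MF had the largest SD of the 4 diets for 18 of 36 members (50%), where it did for 31.7% of all genes. Within replicates 1 to 4 this held for 19 members (40.4% of all genes) and within replicates 5 to 7 for 6 (19.7% of all genes). Among the 12 genes that were higher in CR, MF replicates 3 and 4 were the lowest MF-fed mice for 5 and 3 genes, MF replicates 5 and 6 were the highest for 6 and 5 genes, and C replicate 7 was the lowest C-fed mouse for 7 genes. The genes of a liver are not independent, and the tally was not made over all genes.

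**Figure D4:**
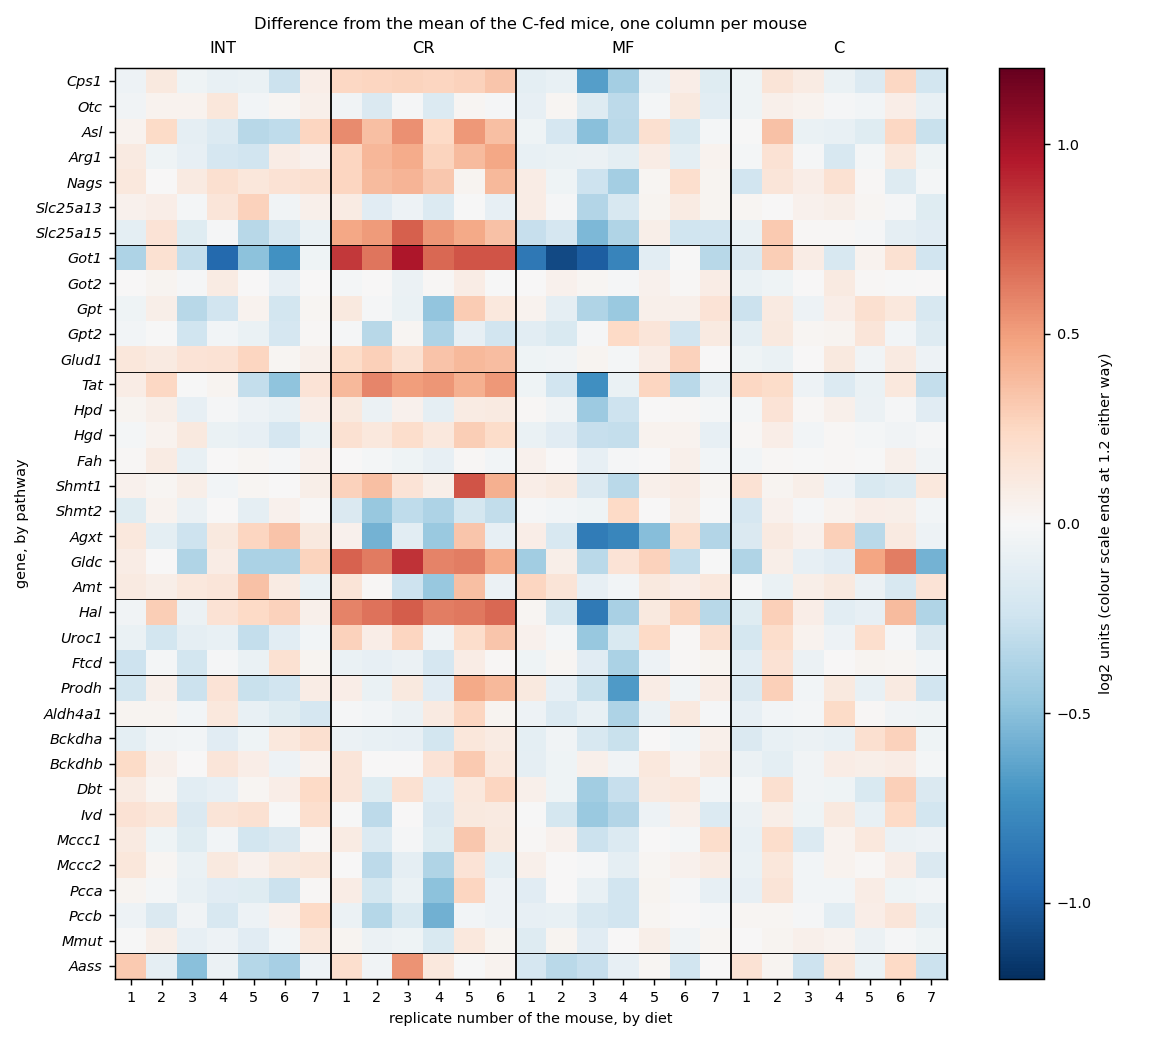
Difference of each mouse's log2 intensity from the mean of the 7 C-fed mice (colour, blue below and red above, scale ending at 1.2 either way) for the 36 members (rows, by pathway), with 1 column per mouse ordered by diet (INT, CR, MF, C) and replicate number. The CR columns are red for Slc25a15, Got1, Tat, Gldc and Hal, and MF replicates 1 to 4 are blue for Got1.

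Within replicates 1 to 4 alone, with 4 mice per diet, 6 members were called between INT and CR (7.63% of all genes), 8 between CR and C (9.01% of all genes) and 13 between CR and MF (14.5% of all genes). Within replicates 5 to 7, with 2 CR-fed and 3 mice of each other diet, 4 (2.55% of all genes), 2 (3.65%) and 3 (2.43%) were called. All 13 called members of each comparison had the same sign within both sets of arrays. They had been called on these same arrays together, so that this agreement is no independent support. Some, such as Cps1 between INT and CR, were called in neither set (adjusted p = 0.129 and 0.218). The size within a set was over 1.5 times apart from that over all mice for 7 of the 39 called differences, which were those given above for Shmt1, Gldc, Nags and Got1, and those of Hgd (-0.15 and -0.39 in the 2 sets) and Glud1 (-0.27 within replicates 5 to 7) between INT and CR.

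Further genes of the same pathways, not members, were counted in lists of 4 to 16 genes. Their calls come from the main fit only. They were not checked under the alternatives run for the members, such as leaving out each mouse, and some lay close to the threshold. The shares of all genes to read them against were 8.37% higher and 6.62% lower for INT against CR, 8.46% higher and 9.05% lower for CR against C, and 8.57% higher and 11.2% lower for CR against MF. Of 15 other urea cycle, glutamine and nitrogen genes, 0 were higher and 3 lower between INT and CR, 2 higher and 2 lower between CR and C, and 5 higher and 1 lower between CR and MF. Slc7a2, a carrier of arginine and other cationic amino acids, had -0.59, 0.44 and 0.79 in these comparisons (adjusted p = 3.46e-05, 0.000941 and 4.89e-07), and Slc25a22, a mitochondrial glutamate carrier, had -0.46, 0.41 and 0.62 (adjusted p = 0.014, 0.0261 and 0.000795). Rhbg, an ammonium transporter, had -0.82 between CR and C (adjusted p = 0.0103), -0.56 between CR and MF (adjusted p = 0.0738) and -0.02 between INT and CR (adjusted p = 0.974), and INT stood at -0.83 against C as well (adjusted p = 0.291).

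Of 4 other phenylalanine and tyrosine genes, 2 were higher in CR than in MF and none was called elsewhere. They were Qdpr (0.36, adjusted p = 0.00331), which regenerates tetrahydrobiopterin, and Gchfr (0.31, adjusted p = 0.0136), a regulator of its synthesis. Of 15 other serine, glycine, threonine and sarcosine genes, 3 were higher and 1 lower between INT and CR, 1 higher and 2 lower between CR and C, and 3 higher and 4 lower between CR and MF. The glyoxylate enzymes Hao1 and Grhpr were lower in CR: Hao1, which makes glyoxylate, had 0.76, -0.65 and -0.49 in the same order (adjusted p = 0.000136, 0.000668 and 0.00734), and Grhpr, which removes it, had 0.44, -0.38 and -0.46 (adjusted p = 8.61e-05, 0.000469 and 3.66e-05). Gcat, of threonine breakdown, was higher in CR than in MF by 0.47 (adjusted p = 0.00422).

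Of 16 other branched chain and propionate genes, 5 were higher and 1 lower between INT and CR, 1 higher and 3 lower between CR and C, and 2 higher and 3 lower between CR and MF. Slc25a44, the mitochondrial carrier of branched chain amino acids, had -0.44, 0.43 and 0.39 (adjusted p = 0.00235, 0.00249 and 0.00487). Bckdk, the kinase that inactivates the branched chain ketoacid dehydrogenase, had 0.28, -0.28 and -0.34 (adjusted p = 0.0392, 0.0354 and 0.00808), and Acat1, a thiolase of isoleucine and ketone body metabolism, had 0.24, -0.17 and -0.22 (adjusted p = 0.00468, 0.0426 and 0.0077).

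Of 5 other lysine and histidine genes, 3 were higher and 1 lower between INT and CR, 1 was higher between CR and C, and 1 higher and 1 lower between CR and MF. Amdhd1, the imidazolonepropionase that follows Uroc1, had -0.33, 0.44 and 0.59 (adjusted p = 0.017, 0.00138 and 3.97e-05). Among the lysine genes, Aadat had 0.42 between INT and CR (adjusted p = 0.0201) and Gcdh 0.17 (adjusted p = 0.0397) and, between CR and MF, -0.18 (adjusted p = 0.0221).

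Of 12 known regulators of amino acid breakdown, 3 were higher and 1 lower between INT and CR, 2 higher and 2 lower between CR and C, and 3 higher and 2 lower between CR and MF. Ppargc1a, a coactivator of fasting genes, had -1.78 (SE 0.16), 1.63 and 2.04 (adjusted p = 1.58e-08, 9.39e-08 and 1.47e-09), and Klf15, a factor that drives amino acid breakdown genes, had -0.36, 0.46 and 0.77 (adjusted p = 0.138, 0.0497 and 0.00098). Creb3l3, a membrane-bound hepatic transcription factor, went the other way, with 0.44, -0.45 and -0.45 (adjusted p = 4.38e-05, 2.9e-05 and 2.59e-05). Of 7 amino acid response genes, 2 were lower between INT and CR, 2 higher between CR and C, and 1 higher and 1 lower between CR and MF. Ddit4 and Sesn2, both inhibitors of mTORC1 signalling, were higher in CR than in C, by 0.82 (adjusted p = 0.035) and 0.40 (adjusted p = 0.00917), and Chac1, a glutathione-degrading enzyme, was lower in CR than in MF, at -0.72 (adjusted p = 0.0453). None of these lists had a called gene between INT, MF and C, where 0 of all 13603 genes tested were called.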

How the data were processed

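Liver RNA of 27 mice was measured, and groups were taken from the diet in the sample labels. The authors used 100 ng of RNA per mouse (RNA integrity number over 8.0). The deposited values are log2 intensities from robust multiarray average, which corrects background, quantile-normalizes the arrays together and gives 1 value per probe set. Arrays carry no read depth, and the number of mice limits the precision. The methods name Entrez-based probe sets, whereas the table used here lists the manufacturer's 35556. Of these, 21218 named 1 gene, and those naming several (1881) or none (12457) were left out. Symbols were updated from a GRCm38.p6 gene table (18790 of 18820 genes), and of several probe sets of a gene (1386 genes) the one of highest mean was kept. Robust multiarray average equalizes the arrays' distributions, so that a change shared by most genes would not be seen.

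The methods' filter kept genes that exceeded an intensity of 20 in 5 or more mice. These were fitted by limma 3.58.1 (R 4.3.3, moderated statistics) over all 27 arrays with diet as the only term, Benjamini-Hochberg adjustment and a 2-sided threshold of 0.05. No test over all genes is named in the methods, and the code was tested on simulated data. Lowest, median and highest values were printed for up to 4 called members per pathway, by smallest adjusted p, and otherwise for the member of largest fold change. Up to 3 called genes were named from each other list. The members and lists were chosen with earlier results of these data known. Alternatives covered the intensity minimum, scaling, variance model, array weights, groups in the fit, sets of arrays, replicate and mouse numbers, probe sets, the one-way test and each mouse left out. Body weights and Q-PCR values were not used here.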

Additional observations from a re-analysis of the deposited data

Results flagged for a closer look

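Within a diet, single mice stood far from the rest for 8 of the 144 combinations of member and diet (5.56%), where 6.62% of such combinations did over all genes tested and chance gives about 1 in 20. Cps1 was 13.16 in CR replicate 6, against 13.07 to 13.10 in the other CR-fed mice. Glud1 was 11.91 in MF replicate 6, against 11.58 to 11.72 in the other MF-fed mice. MF replicate 4 stood apart for Shmt2, at 10.83 against 10.53 to 10.66, and for Ftcd, at 10.10 against 10.34 to 10.51. In C-fed mice, Slc25a13 was 10.85 in replicate 7 (others 10.99 to 11.07), Slc25a15 was 10.90 in replicate 2 (others 10.45 to 10.61), Shmt2 was 10.39 in replicate 1 (others 10.56 to 10.66) and Aldh4a1 was 10.54 in replicate 4 (others 10.21 to 10.32).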

How the results depend on the processing

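The count of called members between INT and CR (13), CR and C (13) and CR and MF (13) stayed within 1.5 times its value under every alternative run except fits within a set of arrays. Within replicates 1 to 4 these counts were 6, 8 and 13, and within replicates 5 to 7 they were 4, 2 and 3, with fewer mice in each fit and with 7.63%, 9.01% and 14.5%, and 2.55%, 3.65% and 2.43%, of all genes called. The methods' one-way test gave 1 member between INT and MF and 2 between MF and C, where limma gave 0. Leaving out each mouse in turn gave 12 to 14 members between INT and CR, 12 to 14 between CR and C, 13 to 14 between CR and MF and 0 to 0 in the other comparisons, and 37 of the 39 calls held under all 27 omissions. No member changed the sign of a called difference under any alternative, though all alternatives drew on the same arrays as the calls. With the replicate number as a block, 12 members were called between INT and CR, 14 between CR and C, 13 between CR and MF and 0 in each other comparison. The labels do not say that a number marks a shared litter or day. Deviations of mice with the same replicate number correlated at 0.07 on average (-0.25 to 0.30), against -0.01 for other pairs. By this number, 11 of 27 mice were closest to a mouse of their own number, and the main fit had no term for it. How many would be so without any link was not computed. For the mouse number the average was 0.005 (-0.27 to 0.26), with 2 of 27 mice closest to their own number. The number of mice, down to 2 CR-fed mice in a set of arrays, limits what could be called.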
